A study of Mus musculus with 36 samples.

Results

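Chemokines and their receptors were followed across 36 subcutaneous mouse tumours. The members were every gene whose symbol is Ccl, Cxcl, Ccr or Cxcr plus a number, together with Cx3cl1, Cx3cr1, Xcl1, Xcr1 and the atypical receptors Ackr1 to Ackr4. They came to 57 of the 37417 genes in the count table, 35 ligands and 22 receptors. The symbols Ccl21a, Ccl21b and Ccl27b had no row that could be matched. Levels are given as CPM, the counts of a gene per 1000000 counts assigned to genes. In at least 1 of the classes described below, 42 members had a median of 1 CPM or more, of which 27 were ligands and 15 receptors.

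Chemokines are small secreted proteins that attract leukocytes through G protein-coupled receptors on the cell surface. Most receptors answer to several ligands and most ligands to several receptors, so the system is usually read in groups: neutrophil attractants at Cxcr2, interferon-induced T cell attractants at Cxcr3, monocyte attractants at Ccr2, and so on. The atypical receptors bind chemokines without G protein signalling and take them up. In tumours, chemokines come from cancer cells, fibroblasts, endothelium and leukocytes, and bulk RNA holds all of them together, so fewer cells of a type and less RNA per cell cannot be told apart.

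All mice were labelled wild type and 12 weeks old. Per the labels and the study's methods, MC38 colon adenocarcinoma and PancO2 pancreatic adenocarcinoma cells were grown under the skin of C57BL/6J mice and CT26 colon carcinoma cells in BALB/c mice. Each model was given control rat IgG, anti-CTLA4 or anti-PD-1 at 10 mg per kg into the peritoneum, and whole tumours were taken at end stage. This gave 9 labelled groups of 4 tumours, and a tumour is named here by its group and mouse number. Nothing in the labels says whether animals shared a litter, cage or day.

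In part the labels and the RNA disagreed. H2-Ea-ps, a class II histocompatibility gene of the mouse that is transcribed in BALB/c but not in C57BL/6 strains, was present or absent against the labelled strain in 16 of 36 tumours. The tumours were therefore also described in 3 classes set by H2-Ea-ps and by Cp, the gene of the copper-carrying plasma enzyme ceruloplasmin; neither gene is a member. The H2-Ea-ps class held 11 tumours with H2-Ea-ps at 32.8 to 134 CPM, the Cp class 12 tumours with Cp at 1389 to 2168 CPM, and the class called neither 12 tumours, in which Cp was 255 to 611 CPM. The cut-offs were 10 CPM for H2-Ea-ps and 1000 CPM for Cp, and outside their class these genes reached at most 0.0845 and 611 CPM. All 9 of 9 labelled groups held more than 1 class. Because the classes were cut from the same libraries, differences between them are described without a test.

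Totals assigned to genes ran from 11821687 to 41751023 counts in 35 tumours. PancO2 anti-PD-1 71 stood apart, with 7883106 counts, 86.5% of its reads in lines that name no gene (44.8% to 63.4% elsewhere) and 15.7% of its counts mitochondrial (2.80% to 4.35% elsewhere). It was left out of the class values. Endothelial markers (Pecam1, Cdh5 and Kdr) summed to 91.5 to 193 CPM in H2-Ea-ps, 63.7 to 147 CPM in Cp and 95.1 to 173 CPM in neither, and skeletal muscle markers (Acta1, Myh4 and Ckm) reached 107, 469 and 48.3 CPM. A count of 0 allows a level of up to 0.0719 CPM in the deepest and 0.254 CPM in the shallowest of the 35 libraries, which covers counting error only.

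Sequence is given for neutrophil attractants of 1 gene cluster, since these genes shared a motif and are read below against the same receptor. Cxcl5, Cxcl3, Cxcl15, Cxcl1 and Cxcl2 lie in 1 cluster on the plus strand of chromosome 5 between 90759360 and 90905938 (GRCm38), and Cxcl1, Cxcl2 and Cxcl3 carry a kappaB motif, the kind of site bound by NF-kappaB, shortly before their starts. The 90 bases that begin 120 bases before each RefSeq transcript start (GRCm38.p6, plus strand) are shown, with the letters GGGNNTTTC, on either strand, in capitals. The windows are chr5:90891125-90891214 for Cxcl1, chr5:90903779-90903868 for Cxcl2 and chr5:90785981-90786070 for Cxcl3, each ahead of the first annotated base of its gene.
Cxcl1: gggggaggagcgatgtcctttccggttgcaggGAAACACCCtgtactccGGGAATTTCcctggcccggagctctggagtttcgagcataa
Cxcl2: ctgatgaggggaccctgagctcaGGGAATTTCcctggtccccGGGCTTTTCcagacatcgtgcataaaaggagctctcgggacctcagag
Cxcl3: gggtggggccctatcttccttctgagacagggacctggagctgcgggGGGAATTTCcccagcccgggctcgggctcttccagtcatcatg

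The same letters GGGAATTTC stood at position -71 from the start in Cxcl1, -97 in Cxcl2 and -73 in Cxcl3. Cxcl1 held a further match at -88 and Cxcl2 at -78. Promoters of 42 of the 57 members were in the table, 46 promoters in all. The motif stood within 250 bases before a start in 11 of these 42 genes. Counted by promoter this was 11 of 46, where 3.72% of 32851 mouse promoters held it. The others were Cxcl9, Ccl9, Ccl20, Ccr3, Cxcr2, Cxcr3, Cxcr4 and Xcl1. An interferon response motif, GAAANNGAA on either strand, stood in 8 of the 42 member genes, among them Cxcl9 at -175 and Cxcl10 at -213. By promoter this was 8 of 46, against 7.13% of all promoters. Cxcl5, Ccl2 and Ccl5 had no entry. The letters of both motifs were set after longer forms had been tried, so the shares are a description and no test of enrichment. A match describes letters and no binding was measured.

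A gene was counted as separate between 2 classes when the lowest tumour of one lay above the highest of the other. Of the 57 members, 45 reached 1 CPM in 4 tumours, some of which, such as Ccl27a, Ccr4 and Ccr8, did so only through the Cp class. Against the class called neither, the H2-Ea-ps class was separate and higher for 1 member (13.5% of all 15121 genes compared) and lower for 10 (20.5%). The Cp class was separate and higher than neither for 9 (14.7%) and lower for 7 (15.6%). Cp was higher than H2-Ea-ps for 13 (22.5%) and lower for 4 (17%). Separation by class was common in the whole table, and these shares are the background for the members' counts.

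The members separate from both other classes differed from class to class. The H2-Ea-ps tumours lay below both other classes for 6 members (10.6% of all genes), namely Ccl17, Cx3cl1, Cx3cr1, Cxcl16, Cxcr4 and Cxcr5, and above both for 0 (7.53%). The Cp tumours lay above both for 6, Ccl22, Ccl27a, Ccl28, Cxcl5, Cxcr5 and Xcr1 (9.31%), and below both for 2, Ccl6 and Cxcl1 (6.96%). The class called neither lay above both for 3, Ccl2, Ccr1 and Cx3cl1 (6.65%), and below both for 1, Ccl28 (3.83%).

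**Figure D1:**
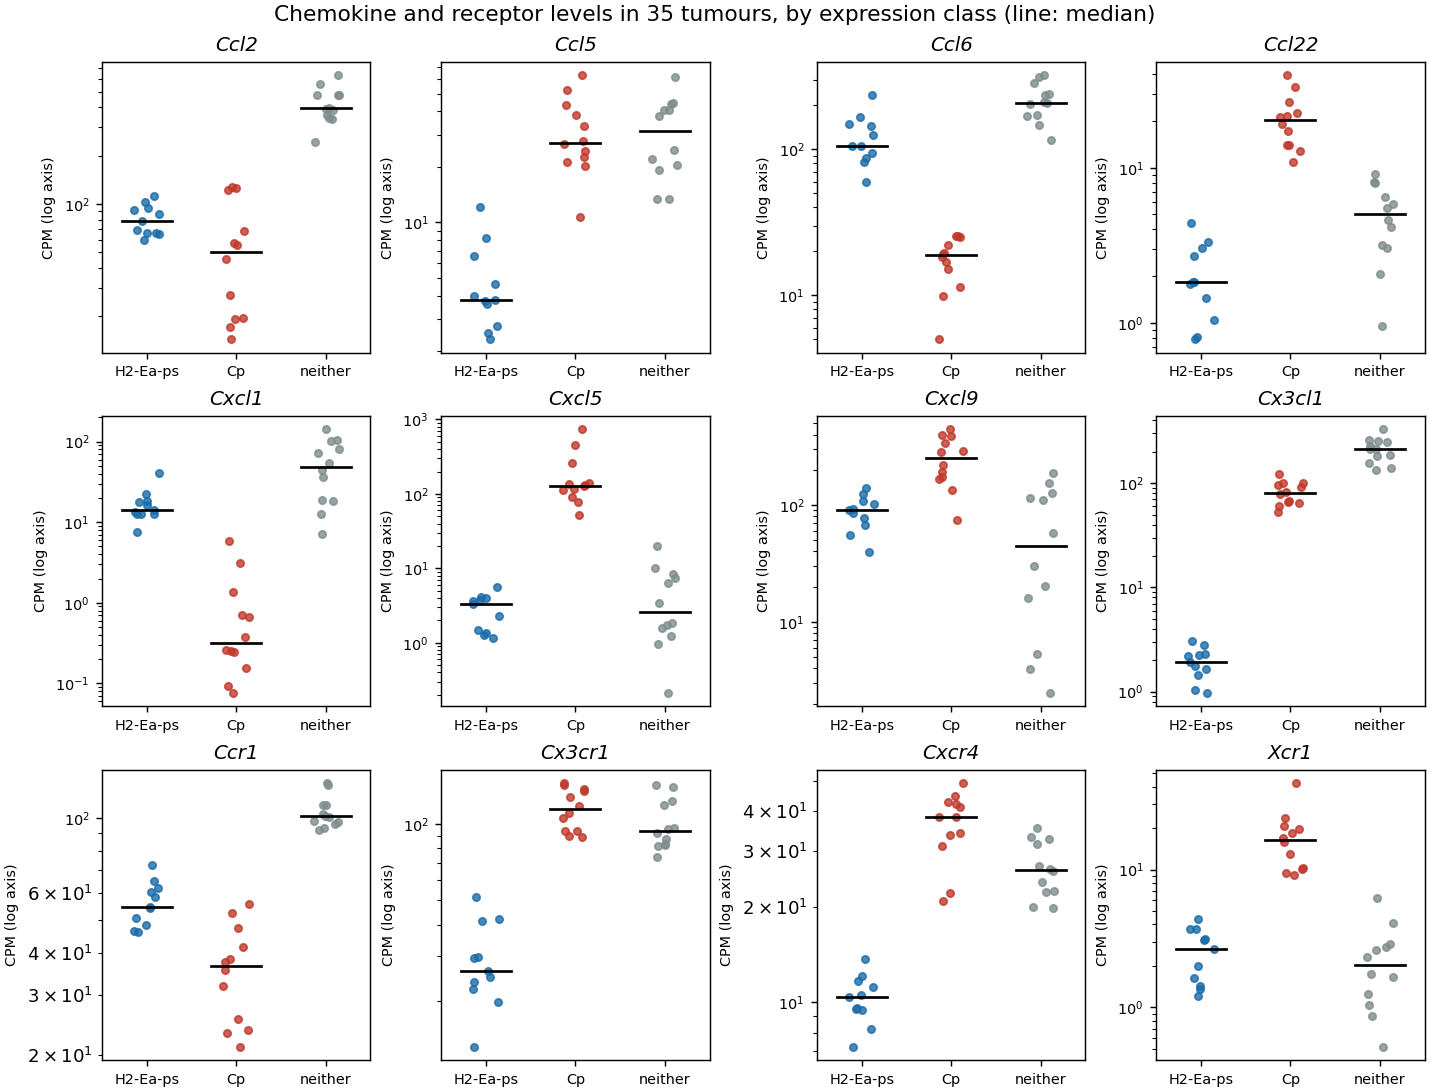
Levels of 12 members in CPM (log axis), 1 point per tumour, in 11 H2-Ea-ps, 12 Cp and 12 neither tumours, with a line at each class median. Cx3cl1 lay between 0.970 and 3.06 CPM in the H2-Ea-ps class and above 52 CPM elsewhere, Cxcl5 was above 51 CPM only in the Cp class, and Cxcl1 was lowest there.

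Among the ligands of Cxcr2, the main chemokine receptor of neutrophils, neighbouring genes took opposite patterns. Cxcl5 was lowest, median and highest at 51.9, 129 and 745 CPM in the Cp class, at 1.17, 3.27 and 5.55 CPM in the H2-Ea-ps class and at 0.211, 2.60 and 19.96 CPM in neither. The Cp median was 49.4 times that of neither and 39.3 times that of H2-Ea-ps, and its highest tumours were PancO2 IgG 48 and PancO2 anti-PD-1 70, the second at 453 CPM. Cxcl1, which lies within the same cluster, ran the other way.

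Cxcl1 was at 0.0759, 0.320 and 5.83 CPM (lowest, median and highest) in the Cp class, at 7.48, 14.2 and 40.4 CPM in H2-Ea-ps and at 7.04, 49.1 and 143 CPM in neither. The Cp tumours fell entirely below both other classes, and the neither median was 153 times the Cp median. The same 2 Cp tumours that led for Cxcl5, PancO2 IgG 48 and PancO2 anti-PD-1 70, also held the most Cxcl1 of that class, at 5.83 and 3.11 CPM. Cxcl2 and Cxcl3 overlapped in all 3 classes. Cxcl2 was at 1.79, 3.27 and 8.56 CPM in H2-Ea-ps, at 3.56, 8.57 and 54.4 CPM in Cp and at 2.04, 8.27 and 52.8 CPM in neither. Cxcl3 was at 1.29, 2.38 and 6.95 CPM in H2-Ea-ps, at 6.71, 11.3 and 31.6 CPM in Cp and at 1.26, 5.50 and 59.3 CPM in neither. Both had their widest range in neither.

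Cxcr2 itself was at 3.65, 5.19 and 6.46 CPM in H2-Ea-ps, at 5.40, 8.17 and 17.3 CPM in Cp and at 3.93, 5.27 and 10.8 CPM in neither, and the classes overlapped. Cxcr1, the other receptor of this group, was listed at 0 in all 11 H2-Ea-ps tumours and reached 0.488 CPM in neither. Summed neutrophil markers (S100a8, S100a9, Csf3r and Retnlg) ran from 16.1 to 48.1 CPM in H2-Ea-ps, 40.7 to 172 CPM in Cp and 24.2 to 239 CPM in neither. The median of the sum was highest in Cp, at 61.2 CPM, against 19.6 CPM in H2-Ea-ps and 44.0 CPM in neither. The granule protein gene S100a8 reached 10.0, 39.4 and 66.4 CPM in those classes, with medians of 3.59, 10.9 and 8.94 CPM. Csf3r and S100a9 had their highest medians in Cp too, while that of Retnlg was highest in neither. The summed markers, Cxcl2 and Cxcl3 each had their widest range, as highest over lowest, in neither.

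Cxcl9, Cxcl10 and Cxcl11, the interferon-induced ligands of the T cell receptor Cxcr3, did not share one class pattern. Cxcl9 was at 73.9, 252 and 446 CPM in Cp, at 39.6, 90.5 and 140 CPM in H2-Ea-ps and at 2.46, 44.2 and 187 CPM in neither. Within neither the highest tumour held 75.8 times the lowest, the widest range of the 3 classes for this gene. CT26 IgG 24, CT26 anti-PD-1 40 and CT26 anti-PD-1 41 were the 3 tumours under 6 CPM.

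Cxcl10 had its highest median in neither, with 47.4, 83.6 and 145 CPM, against 15.6, 29.2 and 41.02 CPM in H2-Ea-ps, which lay wholly below, and 22.8, 50.2 and 173 CPM in Cp. Cxcl11 had its highest median in H2-Ea-ps, with 2.16, 5.98 and 8.11 CPM, against 0.434, 2.01 and 9.65 CPM in Cp and 0.487, 1.60 and 3.43 CPM in neither. GENCODE lists Cxcl11 as a polymorphic pseudogene, since some strains carry a broken copy, and 41.7% of its exon bases overlap Gm2673 on the opposite strand. Whether reads were counted by strand was not stated, so the reads of this pair cannot be told apart. Which tumours carry the broken copy of Cxcl11 was not tested, so these levels do not show a working protein. Cxcr3 was at 1.74, 3.08 and 10.8 CPM in Cp, above the 0.362, 0.606 and 1.40 CPM of H2-Ea-ps, and at 0.327, 0.981 and 2.83 CPM in neither.

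Cxcl12, the stromal ligand that holds leukocytes and stem cells in place through Cxcr4, and its receptor were opposed between classes. Cxcl12 was at 10.8, 16.4 and 26.5 CPM in H2-Ea-ps, at 0.993, 3.21 and 6.48 CPM in Cp and at 3.15, 7.02 and 23.7 CPM in neither. Cxcr4 was at 7.22, 10.4 and 13.6 CPM in H2-Ea-ps, at 20.8, 38.4 and 49.3 CPM in Cp and at 19.8, 26.1 and 35.5 CPM in neither. The class with most ligand thus had least receptor, and Cxcr4 in H2-Ea-ps lay below every other tumour. Ackr3, the atypical receptor that takes up Cxcl12 and Cxcl11, was at 53.97, 69.0 and 107 CPM in H2-Ea-ps, at 97.7, 146 and 179 CPM in Cp and at 42.6, 61.6 and 82.4 CPM in neither, with Cp wholly above neither. The fibroblast markers Col1a1, Pdgfra and Dcn summed to 387 to 783 CPM in H2-Ea-ps, 2355 to 4145 CPM in Cp and 1933 to 3970 CPM in neither. Between Cp and neither the markers went different ways. Dcn had a median of 2313 CPM in Cp and 794 CPM in neither. Col1a1 had medians of 763 and 1380 CPM, and Pdgfra of 252 and 472 CPM, in the same order. All 3 markers had their lowest median in H2-Ea-ps. Their part in these levels was not tested.

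Cxcl16, a membrane-bound ligand that is shed, was at 30.2, 41.8 and 56.3 CPM in H2-Ea-ps, at 76.4, 108 and 170 CPM in Cp and at 73.7, 114 and 156 CPM in neither. H2-Ea-ps lay below both other classes, which overlapped. Its receptor Cxcr6, found on effector and resident T cells, did not follow: it was at 2.02, 6.46 and 9.82 CPM in H2-Ea-ps, at 5.59, 10.6 and 20.1 CPM in Cp and at 0.395, 5.26 and 18.4 CPM in neither. Its exons overlap no other gene, while 18.3% of the exon bases of Cxcl16 overlap Zmynd15 on the opposite strand. Cxcr5, the follicle-homing receptor of B cells, was separate among all 3 classes, at 0.747, 1.04 and 1.21 CPM in H2-Ea-ps, at 2.25, 2.39 and 4.18 CPM in neither and at 4.72, 5.38 and 6.70 CPM in Cp. The Cxcr5 ligand Cxcl13 had medians of 0.0969 to 0.782 CPM. Cxcl14, expressed by epithelium and stroma, was at 13.9 to 68.5 CPM in H2-Ea-ps, above the 7.31 to 13.7 CPM of Cp, and at 9.32 to 17.8 CPM in neither.

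The monocyte attractant Ccl2 marked the class called neither. It was at 243, 394 and 631 CPM there, at 59.2, 78.9 and 112 CPM in H2-Ea-ps and at 14.4, 50.4 and 127 CPM in Cp. No tumour of another class came near, and the neither median was 4.99 times that of H2-Ea-ps and 7.81 times that of Cp. In Cp the highest tumour held 8.84 times the lowest, whereas in H2-Ea-ps the range was 1.89 times.

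The genes beside Ccl2 on chromosome 11 did not share its pattern. Ccl7 was at 33.6, 43.1 and 61.9 CPM in H2-Ea-ps, at 7.63, 38.7 and 126 CPM in Cp and at 23.2, 52.9 and 97.5 CPM in neither. Ccl12 was at 27.6, 43.4 and 54.6 CPM, at 10.5, 26.1 and 54.2 CPM and at 17.5, 31.4 and 54.7 CPM in the same order, with overlap of all 3 classes for both. Ccl8 was highest in H2-Ea-ps, with a median of 38.9 CPM, and overlapped in all 3. Ccr2, the receptor that brings monocytes out of the marrow, was at 35.5, 69.0 and 107 CPM in H2-Ea-ps, at 24.6, 53.9 and 76.1 CPM in Cp and at 65.99, 84.0 and 105 CPM in neither, again with overlap. The class medians of Ccr2 thus differed by 1.56-fold at most, while the Ccl2 median of neither was 4.99 and 7.81 times those of the others.

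Ccr1 is a receptor of inflammatory myeloid cells. Ccr1 was at 91.8, 101 and 127 CPM in neither, at 46.1, 54.5 and 72.6 CPM in H2-Ea-ps and at 21.1, 36.6 and 55.6 CPM in Cp, with neither above both others. Summed macrophage markers overlapped, at 511 to 1055 CPM, 654 to 1067 CPM and 992 to 1697 CPM in H2-Ea-ps, Cp and neither. Single markers differed. Csf1r was at 85.8 to 207 CPM in H2-Ea-ps, below the 252 to 451 CPM of neither. C1qa was at 157 to 297 CPM in H2-Ea-ps, below the 307 to 470 CPM of neither. For these genes Cp overlapped both other classes. Mrc1 in Cp, at 24.3 to 95.1 CPM, lay below both others. Adgre1 and Cd68 overlapped in all classes. The part of macrophages in the Ccr1 levels was not tested.

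Of the inflammatory CC ligands, Ccl6 and Ccl9, rodent chemokines of myeloid cells, were lowest in Cp. Ccl6 was at 4.99, 18.8 and 25.5 CPM there, at 59.6, 106 and 235 CPM in H2-Ea-ps and at 117, 209 and 322 CPM in neither, with Cp below both. Ccl9 was at 25.1, 36.3 and 54.7 CPM in Cp, below the 62, 99.0 and 174 CPM of neither, and at 43.3, 52 and 93.6 CPM in H2-Ea-ps. Ccl5, made by activated T and NK cells, was at 2.32, 3.81 and 12.1 CPM in H2-Ea-ps, at 10.6, 27.1 and 62.9 CPM in Cp and at 13.4, 31.4 and 61.6 CPM in neither, so H2-Ea-ps was separate from neither but touched Cp. Ccl3 and Ccl4, attractants made by activated macrophages and lymphocytes, overlapped in all 3 classes. Ccl3 was at 2.84, 4.07 and 9.10 CPM in H2-Ea-ps, at 2.30, 7.96 and 16.4 CPM in Cp and at 2.85, 4.76 and 15.8 CPM in neither. Ccl4 was at 2.32, 3.05 and 5.98 CPM, at 2.20, 7.31 and 22.3 CPM and at 1.48, 3.40 and 8.75 CPM in that order. The T cell markers summed to 15.3 to 39.996 CPM in H2-Ea-ps, 40.6 to 128 CPM in Cp and 4.75 to 81.8 CPM in neither.

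Ccl22, a ligand of Ccr4 made by dendritic cells and macrophages, was at 10.96, 20.3 and 39.5 CPM in Cp, at 0.782, 1.83 and 4.42 CPM in H2-Ea-ps and at 0.950, 5.06 and 9.13 CPM in neither. Ccl17, the other Ccr4 ligand, was at 0.796, 3.90 and 7.44 CPM in Cp, at 0.0971, 0.196 and 0.498 CPM in H2-Ea-ps and at 0.522, 1.09 and 3.52 CPM in neither. The Cp class was wholly above both others for Ccl22 but overlapped neither for Ccl17.

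Their receptor Ccr4 was at 0.455, 1.04 and 1.64 CPM in Cp, at 0.0539, 0.129 and 0.592 CPM in H2-Ea-ps and at 0.0653, 0.152 and 0.390 CPM in neither. Ccr7, which leads mature dendritic cells to lymph nodes, was at 5.15, 8.999 and 16.05 CPM in Cp, at 1.05, 1.33 and 2 CPM in H2-Ea-ps and at 1.27, 3.18 and 5.96 CPM in neither. Its ligand Ccl19 did not exceed 0.140 CPM in any tumour. Xcr1, the receptor of cross-presenting dendritic cells, was at 9.12, 16.4 and 42.7 CPM in Cp, at 1.21, 2.63 and 4.36 CPM in H2-Ea-ps and at 0.517, 2.02 and 6.25 CPM in neither, with Cp above both. Its ligand Xcl1, made by NK and T cells, was at 0.958, 1.72 and 3.19 CPM in Cp, at 0.149, 0.782 and 1.01 CPM in H2-Ea-ps and at 0.141, 0.496 and 1.43 CPM in neither, and 18.7% of its exon bases overlap a gene on the opposite strand. Ccr8, a receptor of regulatory T cells in tumours, was at 0.384 to 1.83 CPM in Cp, 0.0747 to 0.424 CPM in H2-Ea-ps and 0 to 0.271 CPM in neither. NK markers (Ncr1, Klrb1c and Eomes) summed to 5.54 to 14.2 CPM in H2-Ea-ps, 1.81 to 5.91 CPM in Cp and 7.997 to 27.7 CPM in neither. These markers did not go together. Ncr1 was at 2.41 to 6.15 CPM in H2-Ea-ps, above the 0.164 to 0.807 CPM of Cp and the 0.261 to 1.55 CPM of neither. Eomes had its highest median in neither, at 9.69 CPM, against 4.22 CPM in H2-Ea-ps and 1.92 CPM in Cp. Klrb1c overlapped in all 3 classes. The dendritic cell markers Clec9a, Flt3, Itgae, Zbtb46 and Batf3 summed to 12.1 to 19.2 CPM in H2-Ea-ps, 26.97 to 159 CPM in Cp and 42.4 to 69.4 CPM in neither, with medians of 14.5, 41.2 and 50.02 CPM, so the sum did not separate Cp from neither and its median was highest in neither. Zbtb46 alone had its lowest median in Cp, at 4.93 CPM, against 8.34 CPM in H2-Ea-ps and 31.1 CPM in neither. The other dendritic cell markers had their highest medians in Cp. Flt3 was at 9.48 CPM in Cp and 2.23 CPM in neither, and Itgae at 15.6 and 5.20 CPM. Clec9a, at 10.4 and 9.75 CPM, and Batf3, at 2.33 and 2.05 CPM, differed less. Their part in these levels was not tested.

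The epithelial chemokines were low. Ccl28, a ligand of Ccr10 made by mucosal epithelium, was the 1 member separate among all 3 classes in the order Cp, H2-Ea-ps, neither, at 1.94, 2.72 and 3.78 CPM, at 0.456, 0.747 and 1.18 CPM and at 0.0387, 0.121 and 0.327 CPM. Ccl27a, the skin ligand of the same receptor, was at 0.384 to 1.97 CPM in Cp and at most 0.325 CPM elsewhere. Ccr10 was at 1.44, 3.40 and 5.49 CPM in Cp, at 0.916, 1.26 and 1.72 CPM in H2-Ea-ps and at 0.973, 1.51 and 1.96 CPM in neither. Keratinocyte markers (Krt5, Krt14 and Krt10) summed to 2.54 to 391 CPM in Cp, and to at most 4.57 CPM in H2-Ea-ps and 70.5 CPM in neither. Ccl25, the ligand of gut homing, ran from 1.74 to 3.001 CPM in Cp, below the 3.33 to 8.01 CPM of neither, and from 2.42 to 4.24 CPM in H2-Ea-ps. The eosinophil attractants Ccl11 and Ccl24 had class medians of at most 3.33 and 1.96 CPM, and their receptor Ccr3 stayed under 0.608 CPM.

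Among members whose class medians were all above 1 CPM, the largest ratio between medians belonged to Cx3cl1, the membrane-anchored chemokine fractalkine. It was at 0.970, 1.91 and 3.06 CPM in H2-Ea-ps, at 52.9, 80.2 and 122 CPM in Cp and at 135, 212 and 330 CPM in neither. The 3 ranges were separate, and the neither median was 111 times that of H2-Ea-ps. Its receptor Cx3cr1, carried by monocytes and tissue macrophages, was at 13.1, 26.2 and 51.4 CPM in H2-Ea-ps, at 88.9, 114 and 146 CPM in Cp and at 74.2, 93.8 and 142 CPM in neither. Ligand and receptor were both lowest in H2-Ea-ps, but only the ligand separated the other classes. Cx3cl1 lies on chromosome 8 between Ccl22 (94745590 to 94751699) and Ccl17 (94810453 to 94812036), both highest in Cp, whereas Cx3cl1 was highest in neither.

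The 15 members under a median of 1 CPM in every class were 8 ligands, Ccl1, Ccl19, Ccl20, Ccl26, Ccl27a, Cxcl13, Cxcl15 and Cxcl17, and 7 receptors, Ackr1, Ackr4, Ccr3, Ccr6, Ccr8, Ccr9 and Cxcr1. The highest value among them was 4.74 CPM, for Cxcl13 in 1 H2-Ea-ps tumour. Ccl26 had counts in 1 tumour and Ccl20 in 0 of the 12 neither tumours. Ackr2, the atypical receptor of inflammatory CC chemokines, passed, at 0.149, 0.540 and 0.906 CPM in H2-Ea-ps, at 0.634, 1.09 and 1.60 CPM in Cp and at 0.443, 0.780 and 1.05 CPM in neither.

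**Figure D2:**
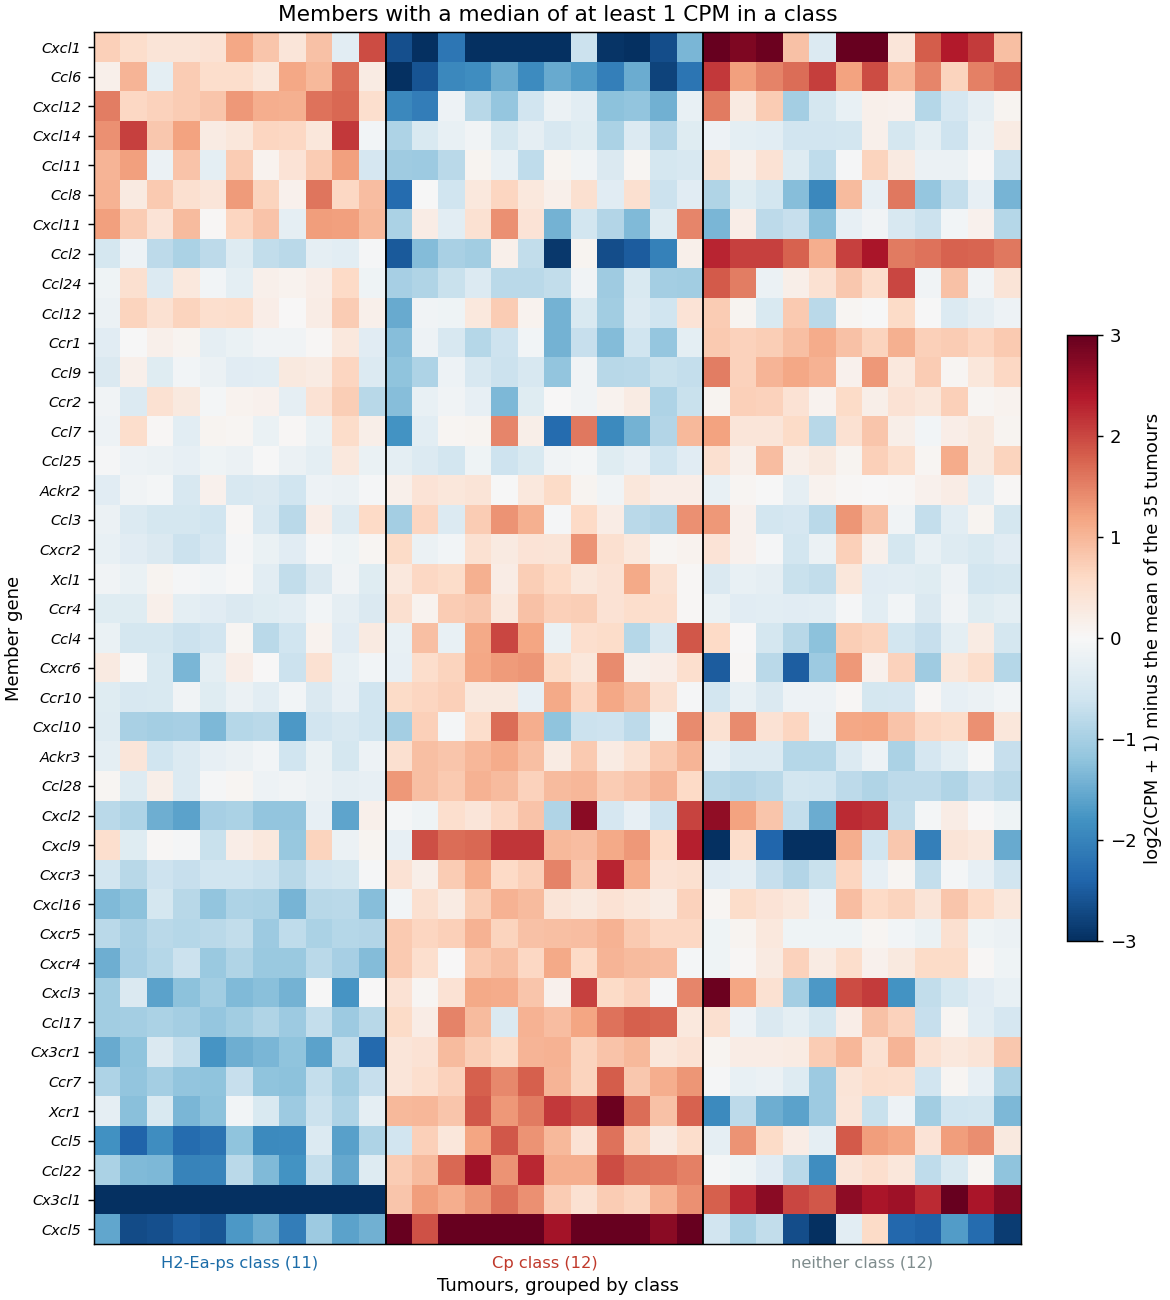
Of the 42 expressed members, 41 (rows) in 35 tumours (columns, grouped by class), coloured by log2(CPM + 1) minus the gene's mean over the 35 tumours, with colours capped at 3 either way and rows ordered by Cp minus H2-Ea-ps. Cxcl5 and Cx3cl1 stand at the Cp end, Cxcl1 and Ccl6 at the other, and the class called neither is highest for Ccl2, Ccr1 and Cx3cl1.

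Levels between genes were compared per kilobase of exon (RPKM, CPM divided by exon length in kb). Among ligands, Ccl2 led in neither, with a median of 346 RPKM and a range of 214 to 554 that lay above the highest tumour of the next gene, Ccl6, at 179 RPKM. In Cp, Cxcl9 led with a median of 83.4 RPKM, but its range of 24.5 to 148 overlapped that of Cxcl5, at 27.8 to 400 RPKM. In H2-Ea-ps the order was Ccl12, Ccl8, Ccl2, Ccl6 and Ccl7, with medians of 80.8, 76.2, 69.3, 59.1 and 53.9 RPKM and overlapping ranges. Among receptors, Ackr3 led in Cp with 29.2 to 53.4 RPKM and a median of 43.5, ahead of Cx3cr1 with a median of 25.4. Ccr1 led in neither with a median of 35.7 RPKM, and its lowest tumour at 32.4 lay above the highest of the next, Cx3cr1, at 31.5. Ackr3 and Ccr1 led in H2-Ea-ps with medians of 20.6 and 19.2 RPKM and overlapped.

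Other genes of the system were read from 2 lists, 7 chemokine-like ligands, receptors and enzymes and 19 genes that act below the receptors. Of the 7, the chemerin receptor Cmklr1 was at 11.3 to 26.8 CPM in H2-Ea-ps, below both the 47.9 to 73.8 CPM of Cp and the 31.3 to 57.8 CPM of neither. Its ligand chemerin, Rarres2, ran the other way, at 8.24 to 16.8 CPM in H2-Ea-ps and 0.205 to 3.87 CPM in neither. The platelet and macrophage chemokine Pf4 was at 22.9 to 116 CPM in neither, above the 8.88 to 21.8 CPM of H2-Ea-ps, and at 3.13 to 31.2 CPM in Cp. Of the 19, the inhibitory G protein gene Gnai2 was separate and higher in Cp than in both others, at 523 to 683 CPM against 351 to 454 and 361 to 402 CPM. Gnai3 was separate and lower in Cp, at 175 to 237 CPM against 251 to 291 and 284 to 336 CPM. Elmo1, which links receptors to Rac, was at 37.6 to 62.4 CPM in Cp and at most 27.5 CPM elsewhere, and the receptor kinase gene Grk6 was at 56.3 to 91.0 CPM in Cp and at least 120 CPM elsewhere. Against neither, 3 of 19 were separate and higher in Cp (14.7% of all genes) and 2 lower (15.6%). Against H2-Ea-ps, 4 were higher (22.5%) and 2 lower (17%).

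Whether ligands and receptors moved together from tumour to tumour was asked within each class. Pearson's r was taken over log2(CPM + 1) for every listed ligand-receptor pair with both genes at a median of 1 CPM or more, which gave 66 relations, 20 in H2-Ea-ps, 26 in Cp and 20 in neither. Each r was compared with 100000 permutations of the tumours, two-sided, and the p-values were adjusted together by the Benjamini-Hochberg method. The median r was 0.155 in H2-Ea-ps, 0.336 in Cp and 0.201 in neither, and 43 of the 66 were above 0. An adjusted p under 0.05 was reached by 11 relations, 10 of them positive.

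These counts were 1 in H2-Ea-ps, 5 in Cp and 5 in neither. By Spearman's rho the same threshold was passed by 1, 3 and 3. As a background, all expressed genes were correlated with the same receptors: an r at least as far from 0 as the weakest relation called in that class was reached by 0.735% of gene-receptor combinations in H2-Ea-ps, 4.12% in Cp and 2.01% in neither. Differences in r between classes were not tested.

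The neutrophil axis was called in 2 of 3 classes. In neither, r with Cxcr2 was 0.85 for Cxcl3 (adjusted p = 0.0103, rho 0.81 with permutation p = 0.00212, adjusted 0.0280) and 0.85 for Cxcl2 (adjusted p = 0.0103, rho 0.78 with permutation p = 0.00378, adjusted 0.0356). For Cxcl5 it was 0.74 (adjusted p = 0.0375, rho 0.69 with permutation p = 0.0153, adjusted 0.0990). The Cxcl5 call was lost without any 1 of 8 of the 12 tumours (adjusted p = 0.0603 to 0.0809) and with a pseudocount of 0.25 CPM (0.0670). Cxcl1 had an r of 0.69 that missed the threshold (adjusted p = 0.0684). MC38 IgG 2 was highest for Cxcr2, at 10.8 CPM, with Cxcl2 at 39.5 and Cxcl3 at 29.4 CPM. CT26 IgG 24 was next for Cxcr2, at 8.58 CPM, with the most Cxcl2 and Cxcl3 of its class at 52.8 and 59.3 CPM.

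In H2-Ea-ps, Cxcl5 and Cxcr2 gave an r of 0.85 (adjusted p = 0.0203, rho 0.82 with permutation p = 0.00344, adjusted 0.0356). That relation rested on levels of at most 5.55 and 6.46 CPM. Without the 2 tumours farthest from the receptor's median, adjusted p was 0.0874 in H2-Ea-ps at an r of 0.83, and 0.0874, 0.146 and 0.164 for Cxcl3, Cxcl2 and Cxcl5 in neither, at r of 0.79, 0.74 and 0.71. With PancO2 anti-PD-1 71 in its class, the H2-Ea-ps relation had an r of 0.23 (adjusted p = 0.763). In Cp, r with Cxcr2 was 0.67 for Cxcl3, 0.54 for Cxcl5 and 0.48 for Cxcl2, and none was called. PancO2 IgG 48 stood at the far end of each, and without it r was 0.29, -0.02 and -0.16.

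The summed neutrophil markers moved with these relations. After they were fitted out of both genes, a step chosen after the data were seen, r in neither was 0.30 for Cxcl3, 0.09 for Cxcl2 and -0.43 for Cxcl5 with Cxcr2, and 0.60 for Cxcl5 in H2-Ea-ps, with adjusted p of 0.771, 0.923, 0.453 and 0.228. After the leukocyte gene Ptprc was fitted out in the same way, r for those 4 relations was 0.87, 0.85, 0.74 and 0.84, all with an adjusted p under 0.05. Here and below, what was left after a fit (residuals) was permuted freely, with no allowance for the fit. Adjusted p-values after fitting out may therefore be too small.

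**Figure D3:**
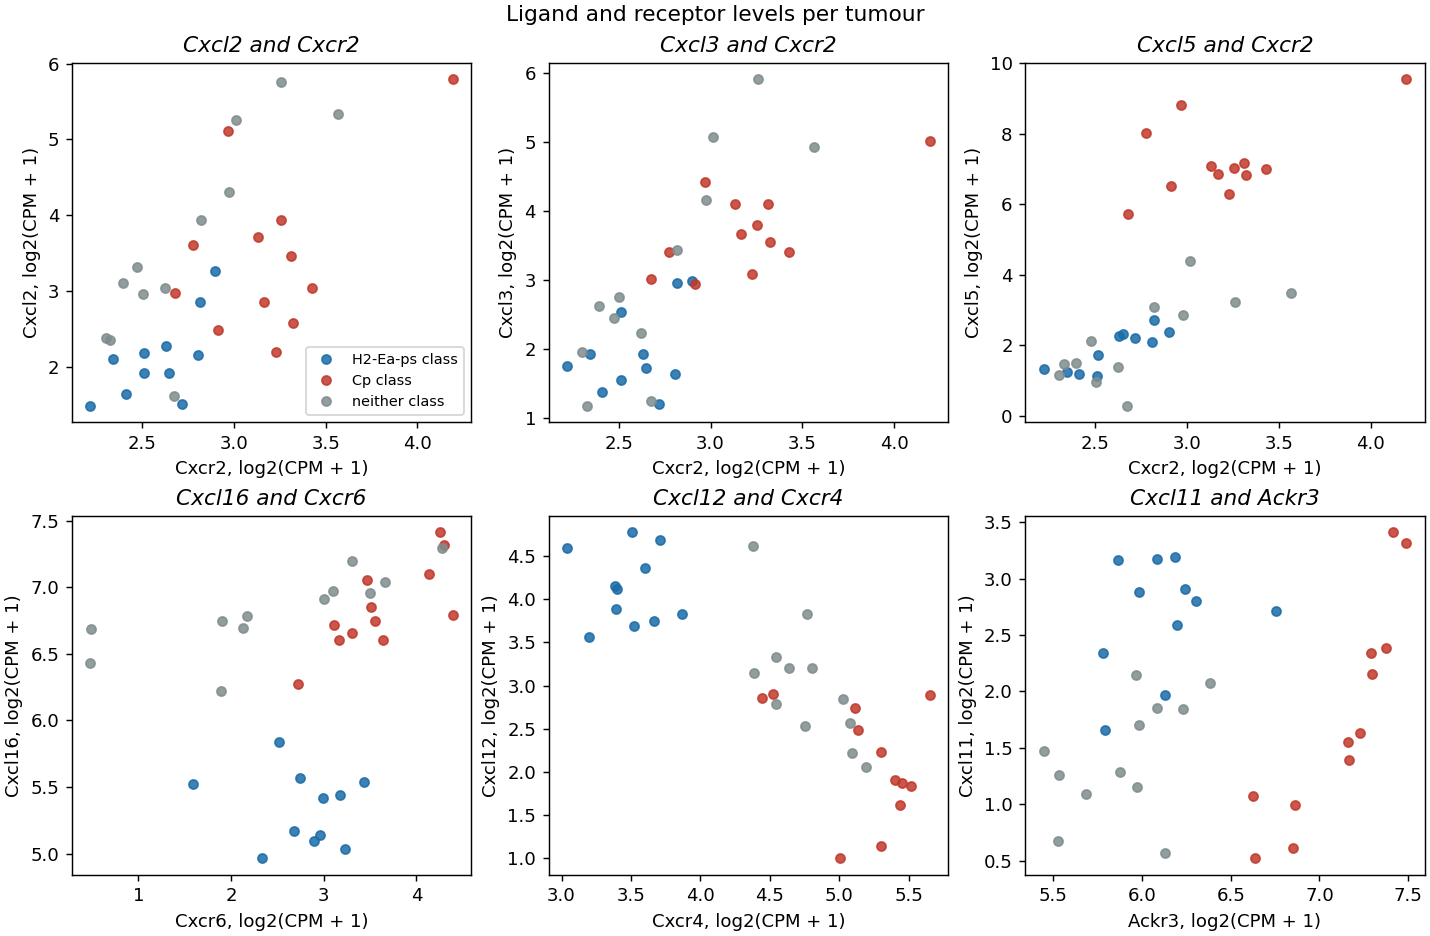
Ligand (y) against receptor (x) for 6 pairs, both in log2(CPM + 1), 1 point per tumour, coloured by class. Cxcl2 and Cxcl3 rose with Cxcr2 in neither (r of 0.85 for both), Cxcl16 with Cxcr6 in Cp and neither (0.78 and 0.80) and Cxcl11 with Ackr3 in Cp (0.89), and Cxcl12 fell with Cxcr4 in neither (-0.71).

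Cxcl16 and Cxcr6 were called in Cp, with an r of 0.78 (adjusted p = 0.0274, rho 0.66 with permutation p = 0.0216, adjusted 0.119), and in neither, with an r of 0.80 (adjusted p = 0.0215, rho 0.94 with permutation p = 2e-05, adjusted 0.00132). In H2-Ea-ps r was -0.13 (adjusted p = 0.819). Without the 2 farthest tumours r was 0.85 in both Cp and neither, with adjusted p of 0.0609 and 0.0330. In Cp the call was lost without CT26 IgG 28, MC38 anti-CTLA4 8 or MC38 anti-PD-1 17 (adjusted p = 0.105, 0.0609 and 0.0575). In neither it was lost without MC38 IgG 2 or CT26 IgG 24 (adjusted p = 0.0664 and 0.0641) and with the labelled treatments fitted out (0.0577). Ptprc moved with the pair: with it fitted out, r was 0.05 in Cp and 0.53 in neither (adjusted p = 0.932 and 0.194). An r this high or higher with Cxcr6 was reached by 1.62% of 13490 genes in Cp and by 2.17% of 13344 in neither.

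Cxcl11 and its atypical receptor Ackr3 gave the highest r of all, 0.89 in Cp (adjusted p = 0.0103, rho 0.94 with permutation p = 6e-05, adjusted 0.00198). It was called without the 2 farthest tumours (r 0.93, adjusted p = 0.0145), with Ptprc fitted out (r 0.91, adjusted p = 0.00033) and with any 1 tumour left out (r 0.86 to 0.92). The pair rose from 0.434 CPM of Cxcl11 and 98.6 CPM of Ackr3 in MC38 anti-PD-1 18 to 8.96 and 179 CPM in MC38 anti-CTLA4 8. An r this high with Ackr3 was found for 0.667% of genes in that class. In H2-Ea-ps and neither the pair was not called. The listing of Cxcl11 as a polymorphic pseudogene and its overlap with Gm2673 hold here too. A working ligand cannot be read from this relation.

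Cxcl12 and Cxcr4 gave the 1 negative call, in neither, with an r of -0.71 (adjusted p = 0.0407, rho -0.69 with permutation p = 0.0155, adjusted 0.0990). CT26 IgG 24 held the most Cxcl12 and the least Cxcr4 of that class, 23.7 and 19.8 CPM. Without that tumour r was -0.64 (adjusted p = 0.136). The call was lost without any 1 of 8 of the 12 tumours (adjusted p = 0.0605 to 0.136). Without the 2 farthest r was -0.51 (adjusted p = 0.391), a setting in which 2 of all 11 calls held. The Cxcl12 call was also lost with the labelled treatments or Ptprc fitted out (adjusted p = 0.159 and 0.0985). In Cp r was -0.36 and in H2-Ea-ps -0.06, neither called. Cx3cl1 and Cx3cr1, for all their difference between classes, were not called within any: r was 0.55 in H2-Ea-ps, -0.23 in Cp and 0.27 in neither (adjusted p = 0.260, 0.678 and 0.648).

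The Cxcr3 ligands, chosen for mention after their values were seen, had no called relation with Cxcr3. In Cp, the 1 class where Cxcr3 passed the median of 1 CPM and these relations were run, r was -0.13 for Cxcl9, -0.46 for Cxcl10 and -0.47 for Cxcl11, none called. PancO2 anti-CTLA4 57 held the most Cxcr3, 10.8 CPM, with 34.4 CPM of Cxcl10, while MC38 anti-CTLA4 8 held the most Cxcl10, 173 CPM, with 2.69 CPM of Cxcr3. With Ptprc fitted out, r was -0.69, -0.94 and -0.90 (adjusted p = 0.0824, 0.00033 and 0.0011). The limit given above for permuted residuals holds for these p-values too. Ccl2 and Ccr2 had r of -0.34 in H2-Ea-ps, -0.28 in Cp and 0.18 in neither.

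**Figure D4:**
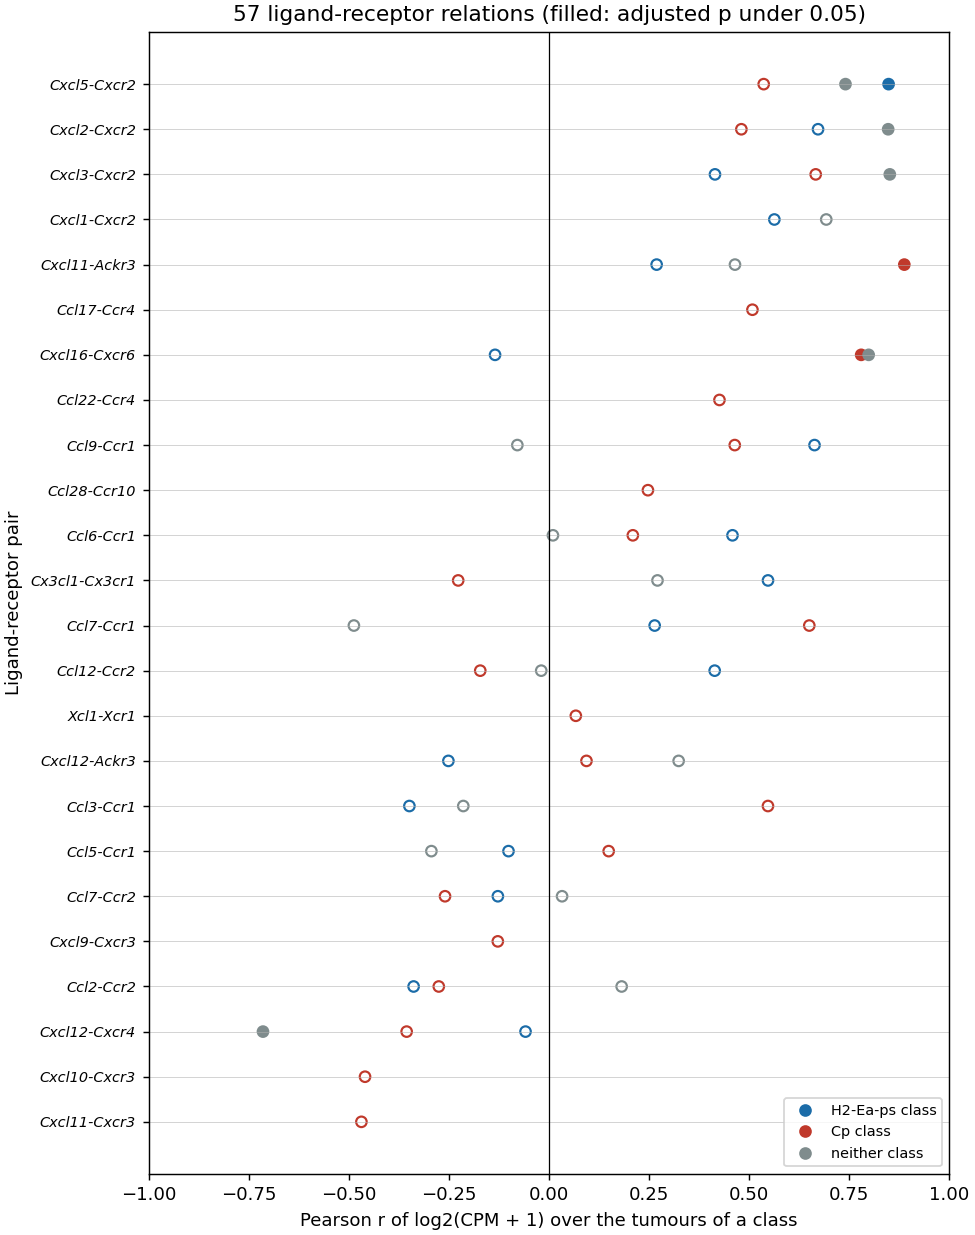
Pearson r over the tumours of a class for 57 of the 66 ligand-receptor relations (1 row per pair, colour for class), with a filled point where the adjusted permutation p was under 0.05. The 8 filled points include 4 with Cxcr2 and 2 for Cxcl16 and Cxcr6, and the 1 filled point below 0 is Cxcl12 and Cxcr4 in neither.

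By label, the question of the design was whether models and antibodies differed. With 16 of 36 tumours against their labelled strain, and an exchange of labels or columns not tested, these comparisons hold for the labels as given, and a low count of calls does not show that the models or antibodies acted alike. With edgeR's quasi-likelihood test, 0 members and 0 genes had an adjusted p under 0.05 in any of 12 comparisons of labelled groups (0%), in which 45 to 49 members were tested. DESeq2 and limma-voom also called 0 members. Over all genes limma-voom called 0, and DESeq2 called 12 between the PD-1 and CTLA4 antibodies in PancO2, 2 for each of these antibodies against IgG in PancO2, 1 each for PancO2 and CT26 against MC38 under IgG, and 0 in the other comparisons. Between 0 and 3 members per comparison had an unadjusted p under 0.05. Among IgG tumours these were 0 where PancO2 was set against MC38 (0.563% of all genes), 1 where it was set against CT26 (0.594%) and 1 between CT26 and MC38 (0.503%). Within MC38 they were 0 for anti-PD-1 against IgG (0.374%), 0 for anti-CTLA4 against IgG (0.153%) and 0 for anti-PD-1 against anti-CTLA4 (0.539%). Within CT26 they were 3 (0.332%), 0 (0.528%) and 0 (0.811%) in the same order, and within PancO2 1 (5.56%), 0 (0.488%) and 3 (5.93%). PancO2 anti-PD-1 71 was part of these PancO2 fits, also those of DESeq2, which was not run without it. Without it, edgeR gave an unadjusted p under 0.05 for 819 of 16940 genes for anti-PD-1 against IgG. Against anti-CTLA4 these were 629 genes, with 1 of 50 members in each comparison. Within groups, Ccl2 and Cxcl5 differed by class.

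Ccl2 averaged 171 ± 204 CPM in MC38 IgG, 283 ± 274 CPM in CT26 IgG and 250 ± 164 CPM in PancO2 IgG (SD, n = 4 each). Its 4 values in MC38 IgG were 55.3, 65.7, 87.1 and 477 CPM, and the last was the 1 tumour of the class called neither. Cxcl5 averaged 39.2 ± 68.7, 36.2 ± 60.1 and 189 ± 371 CPM in those groups. In PancO2 IgG its values were 1.83, 3.37, 5.55 and 745 CPM, the last being the 1 Cp tumour. Cxcl9 averaged 158 ± 103, 81.9 ± 58.3 and 133 ± 26.7 CPM. Under anti-PD-1, Cxcl9 was 156 ± 171 CPM in MC38, 94.9 ± 132 CPM in CT26 and 219 ± 158 CPM in PancO2. Under anti-CTLA4 it was 179 ± 149, 128 ± 143 and 130 ± 90.3 CPM in the same order, and no treated mean differed from its model's IgG mean by more than its own SD. Each SD also holds the spread between the classes in a group, and the classes were not evenly spread over groups. PancO2 IgG held 2 tumours of the class called neither and PancO2 anti-PD-1 held 0. Setting these means against an SD is therefore no test of the antibodies.

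**Figure D5:**
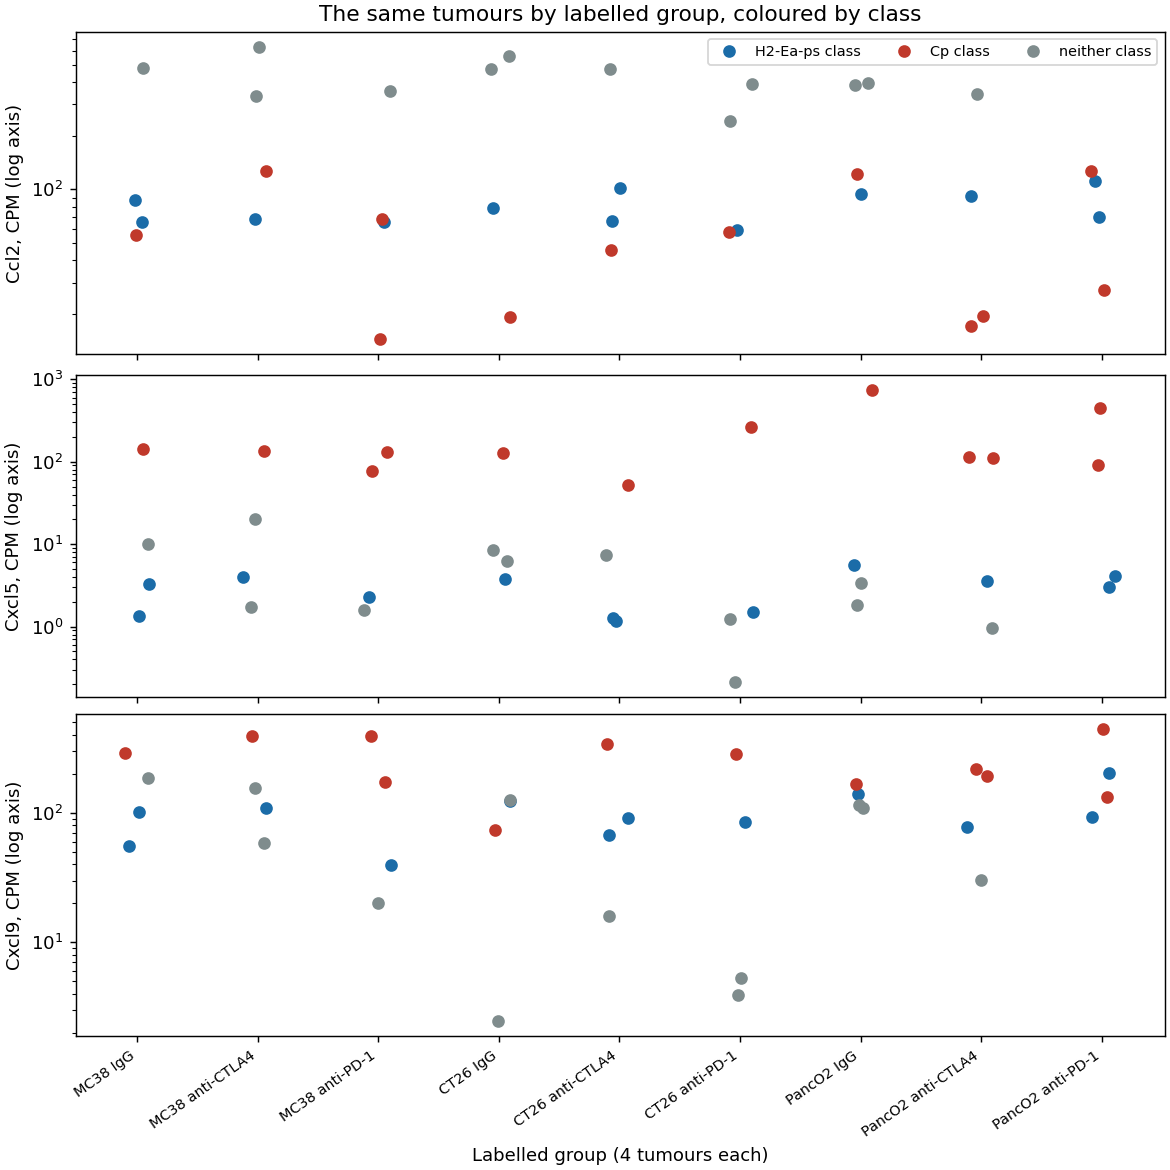
Ccl2, Cxcl5 and Cxcl9 (CPM, log axis) in the 9 labelled groups of 4 tumours, 1 point per tumour, coloured by class and including PancO2 anti-PD-1 71. In each group that holds them, tumours of the class called neither are at the top for Ccl2 and Cp tumours at the top for Cxcl5.

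With class as a term and 35 tumours in the fit, edgeR again called 0 of 47 members and 0 genes (0%) in each of 6 comparisons, and DESeq2 and limma-voom called 0 members. Members with an unadjusted p under 0.05 were 5 for anti-PD-1 against IgG (3.49% of 16426 genes), 4 for anti-CTLA4 against IgG (3.87%) and 3 for anti-PD-1 against anti-CTLA4 (4.61%). Between models they were 0 when PancO2 was compared with MC38 (2.31%), 3 when it was compared with CT26 (3.97%) and 9 when CT26 was compared with MC38 (5.1%). Chosen after their values were seen, the smallest p-values in the last comparison belonged to Ccl5, with a log2 fold change of -0.82 (SE 0.25, unadjusted p = 0.00229, adjusted p = 0.957), Ccl8 at -0.92 and Xcr1 at -0.87. In the Cp class, where Xcr1 was highest, it was 9.12 to 10.3 CPM in 3 tumours labelled CT26 and 13.0 to 23.8 CPM in 4 labelled MC38. The other classes, which were in the same fit, are not given by label for Xcr1. The values of this 1 class therefore do not stand for the comparison. Cxcr2 was the member with the smallest p for anti-PD-1 against IgG, at -0.46 (SE 0.15, unadjusted p = 0.00434, adjusted p = 0.9998). None of these held after adjustment. Of the 26 genes of the other 2 lists, 0 were called in any of the 18 comparisons, and 13 of 468 tests had an unadjusted p under 0.05.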

How the data were processed

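Poly-A selected RNA of 36 tumours (Illumina TruSeq V2, per the labels) was mapped by the authors with TopHat and Bowtie (build mm10, that is GRCm38) and counted with HTSeq. What they deposited are whole-number counts for each Ensembl gene, neither normalized nor pooled. HTSeq drops reads with more than 1 position, so genes with close copies are undercounted, and the strand setting and Ensembl release are not given in the sources used here. The 5 closing lines that name no gene, 44.8% to 63.4% of reads in 35 libraries and 86.5% in PancO2 anti-PD-1 71, were left out. Totals ran from 7883106 to 41751023 counts.

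The members, classes, gene lists, pairs and tests were chosen with earlier results of these data known. Symbols were found for 32608 gene identifiers, and places and exon lengths came from GENCODE M21 (GRCm38). CPM used all gene counts. Labelled groups were compared with edgeR 4.0.16 (filterByExpr, TMM, robust glmQLFit, glmQLFTest, R 4.3.3) at a threshold of 0.05 on the two-sided p after Benjamini-Hochberg adjustment. The SE of a log2 fold change was its size over the root of its F statistic. Models were compared over the 12 IgG libraries, treatments over the 12 libraries of 1 model, and both with class over 35 libraries. Replicates are tumours of single mice, and where culture or litter are not given, p-values measure only the spread between these samples. Correlations used log2(CPM + 1), 100000 permutations and numpy 2.4.6, pandas 2.3.3 and scipy 1.17.1. Figures were drawn with matplotlib 3.10.9. Both steps were tested on simulated data. DESeq2 1.42.0, limma-voom (limma 3.58.1) and other filters, scalings and covariates were alternatives.

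Most receptors and paired ligands with a median of 1 CPM or more in a class were given with their lowest, median and highest value (Ccl8, Ccl11, Ccl24, Ccl25 and the other members by ranges or medians), relations where called, and Ccl2, Cxcl5 and Cxcl9 by label. Promoter motifs were searched in RefSeq sequences (GRCm38.p6), where 41 of 46 member promoters matched a GENCODE transcript, and their letters were set after longer forms had been tried. Values of 1 member and 1 marker list are not reported here, though totals include them.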

Additional observations from a re-analysis of the deposited data

Results flagged for a closer look

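Within labelled groups of 4, 9 of 27 sets (Ccl2, Cxcl5 and Cxcl9 in 9 groups) held a tumour far from the other 3 by Dixon's test at the 95% level, which by chance marks about 1 in 20 sets. Ccl2 and Cxcl5 were chosen with their separation by class known and every group mixes classes, so the number of such sets is a description. For Ccl2 these were MC38 IgG 2 at 477 CPM (the others 55.3 to 87.1), MC38 anti-PD-1 19 at 357 CPM (14.4 to 68.3) and CT26 anti-CTLA4 32 at 477 CPM (45.6 to 102), all in the class called neither. For Cxcl5 they were MC38 IgG 7 at 142 CPM (1.36 to 10.2), MC38 anti-CTLA4 8 at 134 CPM (1.74 to 19.96), CT26 IgG 28 at 126 CPM (3.77 to 8.42), CT26 anti-CTLA4 36 at 51.9 CPM (1.17 to 7.44), CT26 anti-PD-1 46 at 261 CPM (0.211 to 1.499) and PancO2 IgG 48 at 745 CPM (1.83 to 5.55), all in the Cp class. In all 9 the far tumour was the 1 tumour of its class in the group.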

How the results depend on the processing

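All 180 alternatives to the 18 label comparisons gave 0 members, and all 18 alternatives to the class ranges (TMM scaling, no filter, PancO2 anti-PD-1 71 included) kept their counts within 1.5 times. TMM shifted the median log2 difference between classes by -0.071 to 0.075. The ligand-receptor calls were less stable. In H2-Ea-ps (1 call) they came to 0 at a median of 5 CPM, 0 without the 2 tumours farthest from the receptor's median, 0 with PancO2 anti-PD-1 71, 2 on Ptprc residuals, 0 on neutrophil marker residuals and 1 to 3 leaving out single tumours (3 without CT26 anti-CTLA4 35 or PancO2 anti-CTLA4 62). In Cp (5 calls) they came to 1 without the 2 farthest, 3 on Ptprc residuals and 2 to 6 leaving out single tumours (2 without MC38 anti-CTLA4 8, 3 without MC38 IgG 7, MC38 anti-PD-1 17 or CT26 IgG 28). In neither (5 calls) they came to 1 without the 2 farthest, 3 on treatment residuals, 3 on Ptprc residuals, 2 on neutrophil residuals and 2 to 7 leaving out single tumours (2 without MC38 IgG 2 or CT26 IgG 24, 3 without MC38 anti-CTLA4 11, MC38 anti-PD-1 19, CT26 IgG 29 or CT26 anti-PD-1 40). Of the 11 calls, 5 held with any 1 tumour left out and 2 without the 2 farthest. Signs turned, the cause not tested, for Cxcl12 and Cxcr4 in H2-Ea-ps (0.48 without the 2 farthest, 0.00040 on treatment residuals, -0.28 to 0.23 leaving out single tumours) and in Cp (0.25 without the 2 farthest), for Cxcl16 and Cxcr6 in H2-Ea-ps (-0.314 to 0.0613 leaving out single tumours), for Cxcl9 and Cxcr3 in Cp (0.0700 without the 2 farthest), for Cx3cl1 and Cx3cr1 in neither (-0.15 on Ptprc residuals) and for Cxcl5 and Cxcr2 in neither (-0.43 on neutrophil residuals). The neutrophil residuals were chosen after the data were seen. No paired analysis was possible because each mouse number belongs to 1 library only. Members under 1 CPM rest on few counts.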

Other observations

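PancO2 anti-PD-1 71, left out of the class values, held Cxcr2 at 89.4 CPM and Xcr1 at 45.4 CPM. Its class otherwise held Cxcr2 at 3.65 to 6.46 CPM and Xcr1 at 1.21 to 4.36 CPM. No other tumour of the series passed 17.3 CPM for Cxcr2 or 42.7 CPM for Xcr1. Of its Cxcr2 ligands, Cxcl1 was 14.97 CPM, Cxcl2 2.03 CPM and Cxcl5 3.04 CPM, within the range of its class, and Cxcl3 was 0.254 CPM, below it. This was also the library with the fewest counts and the largest mitochondrial share, whose part in these values was not tested.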
